A study of Solanum lycopersicum with 9 samples.

Results

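Roots that had grown in a soil patch given a high dose of ammonium (65 μg NH4+-N per g soil) were compared with roots from a patch given a low dose (6.5 μg NH4+-N per g soil), 53 h after the solution was added. The comparison used the 3 arrays of each dose and the 6365 tomato probe sets, of 10038 on the array, that had a signal of 100 or more on 1 or more of these 6 arrays. A probe set is a group of short oligonucleotides that measures 1 transcript, and several probe sets can belong to 1 gene. The plants were tomato (Solanum lycopersicum) cultivar 76R grown in pots of field soil that held a buried ring, into which the roots grew and the treatment was injected. A water treatment (0 μg) had 3 further arrays, which were used to estimate the spread and to set the 2 doses beside roots that received no N. All groups shared the cultivar, the soil and the time of harvest, and each array held the RNA of 1 biological replicate. Both NH4+ doses carried 15N-labelled ammonium. The arrays hold whole roots of the patch, so less RNA per cell and fewer cells of a type cannot be told apart.

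Roots take up ammonium through AMT transporters and nitrate through NRT transporters. Nitrate is reduced to nitrite and then, by nitrite reductase in the plastids, to ammonium. Glutamine synthetase binds ammonium into glutamine, glutamate synthase passes the amide group on to make glutamate, and aminotransferases move the amino group to other amino acids. Soil microbes turn ammonium into nitrate, so that a patch of ammonium in living soil supplies both forms, and roots commonly branch and grow more in such patches.

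The signals were natural logs of MAS5 values and were converted here to log2, so that a difference of 1 is a 2-fold difference. Differences are given as high minus low NH4+, with the standard error and an adjusted p from limma, and the false discovery rate for a call was 10%. The median log2 signal of all tomato probe sets was 6.87 to 7.15 in the low NH4+ group and 7.23 to 7.40 in the high NH4+ group, and the number of arrays, 3 per dose, limits the precision. Of 8 probe sets of root markers, 7 were at a signal of 100 or more on all 3 high NH4+ arrays and 5 on all 3 low NH4+ arrays. These markers include NRT2.1 and FER, both described below. FER was under 100 on all 3 low NH4+ arrays and was called higher at the high dose. The summed signal of the root markers was 9970 to 12060 at the high dose and 11280 to 14770 at the low dose. The 10 probe sets of leaf photosynthesis markers summed to 912 to 1469 at the high dose and 990 to 1998 at the low dose, and 3 of the 10 reached 100 on all 3 arrays of either dose. The ranges of both lists overlapped between the doses, as did those of 2 mycorrhiza-linked probe sets (1029 to 1507 at the high dose and 889 to 1948 at the low dose). The 7 fruit and flower probe sets, which include those of the carotenoid gene Psy1, summed to 917 to 1078 at the high dose and 1147 to 1415 at the low dose and did not overlap. Of the 3 tested, 1 was called lower, beside 0.141% of all probe sets.

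A small share of the probe sets passed the test between the 2 doses. Among the 6365 probe sets, 105 (1.65%) were called, of which 96 were higher and 9 were lower in high NH4+ roots. The named ones that were higher included genes of N uptake and assimilation, of cell division and chromatin and of the cell wall, and 9 named probe sets outside these groups. After each array was centred on its median, a choice that lowers every difference by 0.25, the split was 41 higher and 12 lower, and with no filter on low signals it was 5 higher and 6 lower. The probe sets called higher differed by 0.72 to 4.24 on the log2 scale, with a median of 1.51, and 84 of them differed by 2-fold or more. Those called lower differed by -0.72 to -2.21. Before adjustment, 1226 probe sets (19.3%) had a p under 0.05, of which 865 were higher and 361 lower. This split depended on the scaling, with 476 higher and 935 lower after median centring and 599 higher and 567 lower after quantile normalization.

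**Figure D1:**
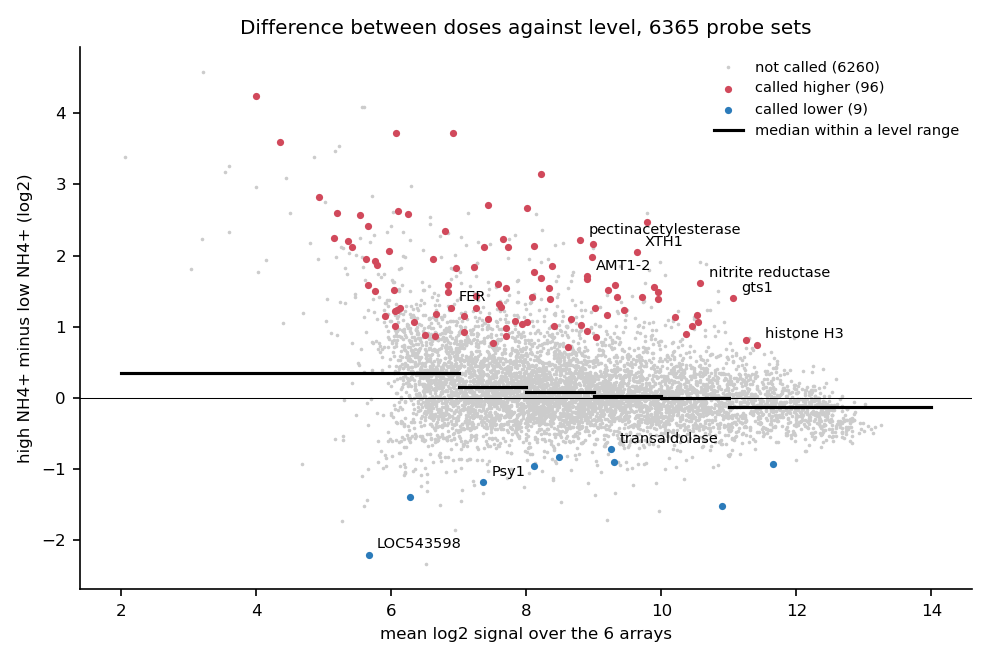
Difference between the doses (high minus low NH4+, log2) against the mean log2 signal over the 6 arrays, for 6365 probe sets. Red points are the 96 called higher and blue points the 9 called lower. Black bars are the median difference within a range of levels, which runs from 0.35 at the lowest levels to -0.13 at the highest.

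Weakly expressed probe sets leaned towards the high dose and strongly expressed ones towards the low dose. The median difference was 0.35 for the 1149 probe sets with a mean log2 signal under 7 and -0.13 for the 785 with a mean of 11 or more. Of the former 35 (3.05%) were called higher, and of the latter 3 (0.382%). After quantile normalization these medians were 0.04 and -0.01, and 11 probe sets remained called, each of them among the 105. Without low NH4+ replicate 2 they were 0.18 and -0.10.

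An RNA quality measure set 2 of the 3 low NH4+ arrays apart from the other arrays. The array carries probe sets for the 3' and the 5' end of the transcripts of actin, EF1a and GAPDH, and a larger 3' minus 5' difference is a sign of shortened RNA or shortened copies of it. Averaged over the 3 genes, this difference was 2.04, 3.44 and 1.33 on low NH4+ replicates 1, 2 and 3, 0.75, 1.06 and 1.46 on the high NH4+ arrays and 0.70 to 1.21 on the water arrays. Low NH4+ replicates 1 and 2 thus lay above all other arrays. With this difference as a covariate in the fit, a choice made after seeing the data, limma called 0 probe sets (538 at an unadjusted p under 0.05, lowest adjusted p = 0.362). All 105 probe sets kept their direction in that fit, and their differences were 0.856 times as large in the median. Leaving out low NH4+ replicate 2 left 3 calls (718 at an unadjusted p under 0.05), leaving out high NH4+ replicate 1 left 2, leaving out water replicate 3 left 6, and leaving out high NH4+ replicate 2 left 0 (775 at an unadjusted p under 0.05). Leaving out low NH4+ replicate 3, which keeps the 2 arrays with the largest 3' minus 5' difference, gave 945 calls. Every call described in the following paragraphs therefore ends without high NH4+ replicate 2, and the values on each array are given so that the groups can be compared directly.

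**Figure D2:**
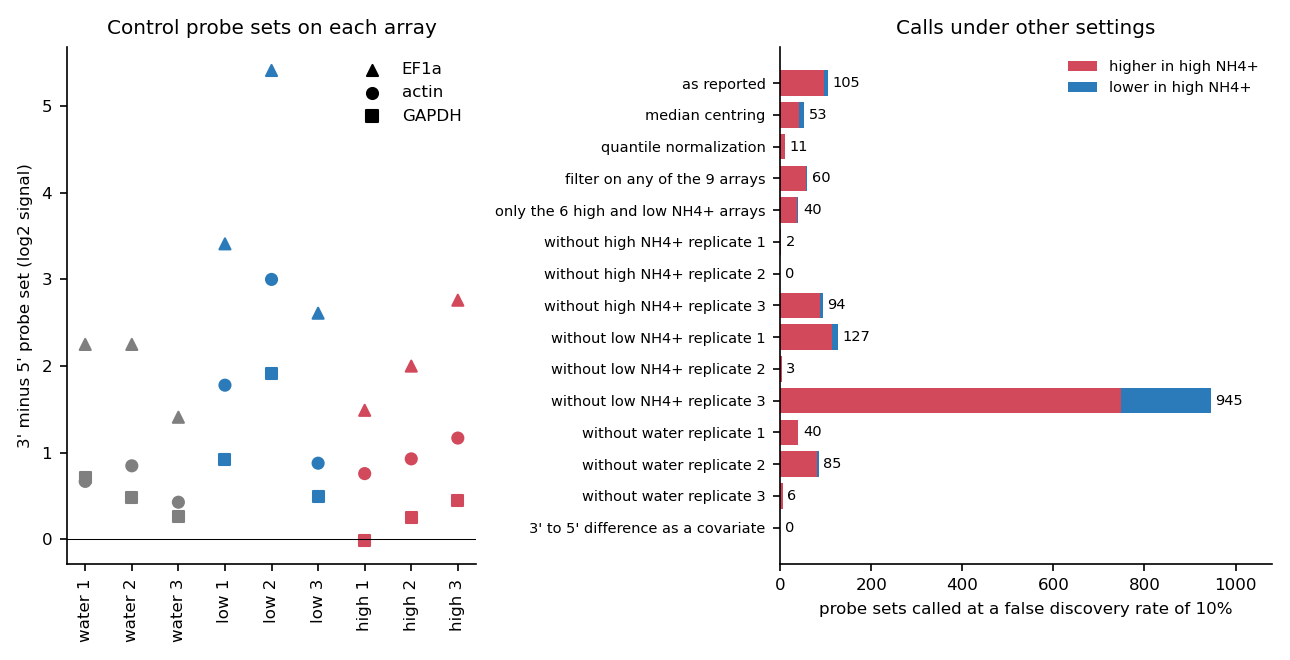
Left, the difference between the 3' and 5' control probe sets of EF1a, actin and GAPDH (log2 signal) on each of the 9 arrays, with the highest value, 5.41, on low NH4+ replicate 2. Right, the number of calls at a false discovery rate of 10%, as reported (105) and under other settings, from 0 to 945, with red for higher and blue for lower in high NH4+ roots.

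Several genes for the uptake and assimilation of NH4+ were higher at the high dose. Of the 6 tested probe sets for N reduction and assimilation, 3 rose (beside 1.51% of all probe sets called higher), 0 fell, and the 3 high NH4+ arrays lay above the 3 low NH4+ arrays in all 6, against 15.1% of all probe sets tested. Their median difference was 1.24, against 0.06 over all probe sets tested. The list is not complete. The paper reports a ferredoxin-dependent glutamate synthase and an asparagine synthetase as not different on these arrays, and neither is in it. The 21 probe sets that the study listed as N assimilation and metabolism genes, which it chose on these same arrays and which are thus no independent evidence, had 5 called higher, 0 called lower and a median difference of 0.05.

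Nitrite reductase, which makes ammonium from nitrite, had log2 signals of 10.31, 9.70 and 9.32 at the low dose and 11.15, 11.57 and 11.45 at the high dose. The groups did not overlap, and the gene was 3.07-fold higher at the high dose (log2 difference 1.62, standard error 0.31, adjusted p = 0.081 from limma). The cytosolic glutamine synthetase gene gts1 has 2 probe sets. Both were called higher, and they are 2 of the 3 called in this list. The first read 10.13, 10.55 and 10.41 at the low dose and 11.13, 12.06 and 12.11 at the high dose, a difference of 1.40 (standard error 0.26, adjusted p = 0.081 from limma). Its signal on the water arrays was 7.61 to 7.81, so gts1 was the gene of this list whose low dose level stood farthest from water (low minus water 2.66, high minus water 4.06). The second stayed under a signal of 100 on all 3 low NH4+ arrays and differed by 1.26 (standard error 0.23, adjusted p = 0.081 from limma). It was also under 100 on 1 high NH4+ array. With signals under 100 set to 100, its difference was 0.17 (adjusted p = 0.461 from limma).

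The other assimilation genes of this list did not pass the test. The NADH-dependent glutamate synthase gene, whose enzyme makes glutamate from glutamine, read 9.62, 9.48 and 9.16 at the low dose and 10.13, 10.39 and 10.38 at the high dose (difference 0.88, standard error 0.20, adjusted p = 0.101 from limma). It was among the 3 named probe sets nearest to the threshold on its far side. GS2, the glutamine synthetase of plastids, read 8.88, 8.80 and 8.53 at the low dose and 9.85, 10.14 and 9.88 at the high dose (difference 1.22, standard error 0.31, adjusted p = 0.118). For gdh1, glutamate dehydrogenase, the difference was 0.34 (standard error 0.22, adjusted p = 0.400), with signals of 10.44 to 10.86 at the low dose and 10.88 to 11.14 at the high dose.

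The 3 NH4+ and NO3- transporter probe sets found by name did not share a direction. The paper reports further nitrate transporters on the array, which are not in this list. AMT1-2, a high-affinity ammonium transporter, read 9.05, 7.74 and 7.37 at the low dose and 9.48, 9.86 and 9.96 at the high dose. It was 3.28-fold higher at the high dose (log2 difference 1.71, standard error 0.38, adjusted p = 0.096 from limma), and the spread was larger among the low NH4+ arrays (SD 0.88, n = 3) than among the high NH4+ arrays (SD 0.25, n = 3). AMT1 had the opposite sign, with 10.39, 10.60 and 10.60 at the low dose against 9.56, 9.74 and 10.14 at the high dose, and did not pass the test (difference -0.72, standard error 0.21, adjusted p = 0.147). The nitrate transporter NRT2.1 read 8.99 to 9.66 at the low dose and 9.72 to 10.65 at the high dose (difference 0.88, standard error 0.36, adjusted p = 0.237).

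An aspartate aminotransferase cluster was called higher in all 3 of its probe sets, 1 of them at signals mostly under 100. Aspartate aminotransferase passes an amino group between glutamate and aspartate, and 3 probe sets share its cluster number, of which 2 carry its name. The first named one read 7.84, 7.24 and 7.63 at the low dose and 9.07, 9.27 and 9.00 at the high dose (difference 1.54, standard error 0.20, adjusted p = 0.056 from limma). The second named one read 9.32, 8.85 and 8.34 against 10.02, 10.07 and 10.11 (difference 1.23, adjusted p = 0.081). The one without a name differed by 1.59 (adjusted p = 0.093). It was under a signal of 100 on all 3 low NH4+ arrays and on 5 of the 6 arrays in all. With signals under 100 set to 100, its difference was 0.005 (adjusted p = 0.984 from limma). Of the 9 tested probe sets of aminotransferases and amino acid synthesis, the 2 named ones of this cluster were the 2 called. Over all probe sets 1.51% were called higher. The median of the list was -0.07, against 0.06 over all probe sets. GABA-TP3, a GABA transaminase of that list, read 9.40 to 9.74 at the low dose and 8.21 to 9.33 at the high dose (difference -0.79, adjusted p = 0.188).

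Across the 7 probe sets called in this N group, the differences with the 3' minus 5' covariate were 0.85 to 1.77 (adjusted p = 0.362 to 0.475 from limma), and without low NH4+ replicate 2 they were 1.24 to 1.58 (adjusted p = 0.139 to 0.252). Without high NH4+ replicate 1 the first gts1 probe set alone was called (adjusted p up to 0.333 for the others), and without water replicate 3 the first aminotransferase probe set alone (up to 0.119). Of the 7, 2 were called without high NH4+ replicate 3 (adjusted p up to 0.145), 4 without low NH4+ replicate 1 (up to 0.115), 2 without water replicate 1 (up to 0.121) and 5 without water replicate 2 (up to 0.131). With signals under 100 set to 100, 4 of the 7 were called (up to 0.984). The median of the assimilation list was 1.46 with the covariate and 0.99 after median centring. High NH4+ replicate 1 was the lowest of the 3 high NH4+ arrays in 6 of the 6 assimilation probe sets, against 29.9% of all probe sets tested.

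**Figure D3:**
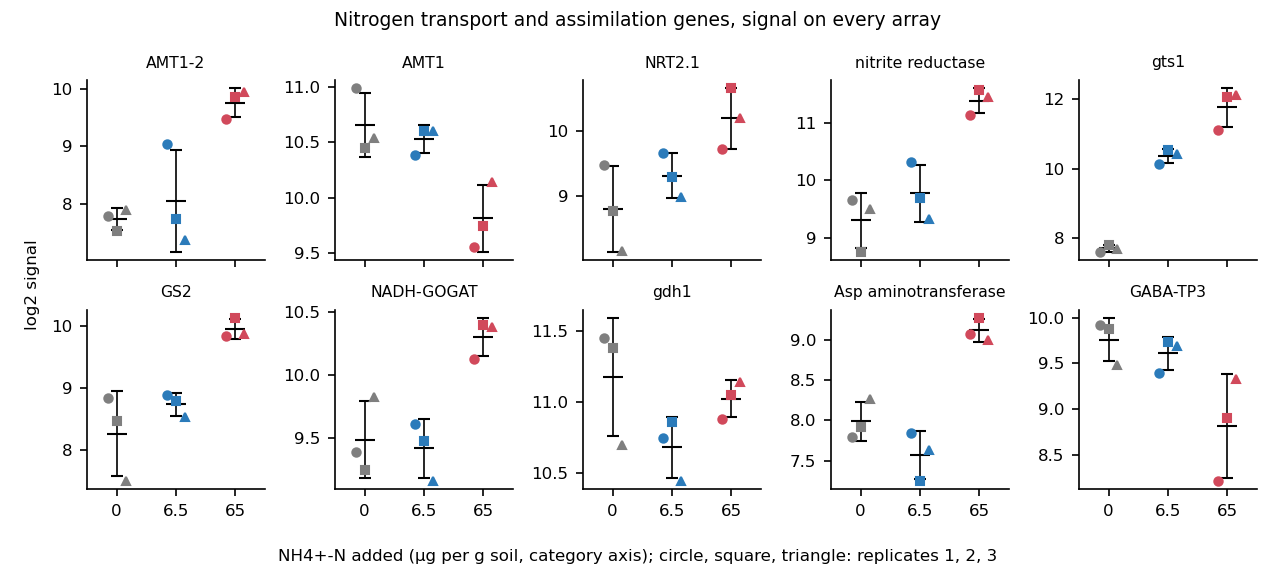
Log2 signal of 10 nitrogen transport and assimilation probe sets on each of the 9 arrays, by NH4+-N added (0, 6.5 and 65 μg per g soil); circles, squares and triangles are replicates 1, 2 and 3, and bars are the mean and SD (n = 3). For gts1 the low dose values of 10.13 to 10.55 lie between the water and the high dose values, whereas the aminotransferase at 7.24 to 7.84 at the low dose lies near water and below the high dose.

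Some cell cycle genes were higher in high NH4+ roots. Of 15 tested probe sets of cyclins and cyclin-dependent kinases, 3 rose and 0 fell, the groups did not overlap with the high dose on top in 9, and the median difference was 0.87 (1.51% called higher, 15.1% not overlapping and a median of 0.06 over all probe sets). The regulator cdc20, which directs the destruction of cyclins in mitosis, read 7.36, 6.65 and 6.77 at the low dose and 8.96, 8.49 and 7.94 at the high dose (difference 1.54, standard error 0.28, adjusted p = 0.081 from limma). CDKB1, a plant kinase of the G2 to M step, read 8.31, 7.65 and 7.75 against 9.11, 8.97 and 8.65 (difference 1.01, standard error 0.21, adjusted p = 0.093). CycA1, an A-type cyclin, read 7.70, 7.53 and 7.02 against 8.80, 8.43 and 8.15 (difference 1.04, standard error 0.23, adjusted p = 0.095). Each high NH4+ array lay above each low NH4+ array for all 3 genes, as the doses overlapped in none of the 105 called probe sets. CDKB2 (8.28 to 8.56 at the low dose against 8.92 to 9.89, adjusted p = 0.118 from limma) and CYCD3, a D-type cyclin that acts at the entry to the cycle (difference 1.18, adjusted p = 0.137), did not pass the test. The member of the list with the lowest difference was cdc2A-2, at -0.52 (adjusted p = 0.188).

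Genes of DNA replication and of the spindle had the same direction. All 4 probe sets of that list had high NH4+ arrays above the low NH4+ arrays, and 2 were called, against 15.1% and 1.51% of all probe sets. A mitotic arrest deficient-like gene, whose relatives hold mitosis until chromosomes are attached to the spindle, read 6.76, 6.05 and 6.80 at the low dose and 8.34, 8.09 and 7.46 at the high dose (difference 1.43, standard error 0.27, adjusted p = 0.081 from limma). A ribonucleotide reductase-like gene, which makes the building blocks of DNA, read 8.67, 8.15 and 8.47 against 9.55, 9.43 and 9.13 (difference 0.94, standard error 0.19, adjusted p = 0.093). The replication genes for a minichromosome maintenance protein and for PCNA differed by 0.85 and 0.74 and did not pass (adjusted p = 0.140 and 0.211). A nucleosome chromatin assembly factor gene rose 2.15-fold (adjusted p = 0.081). The 2 probe sets of a gene similar to Arabidopsis UBC19, a ubiquitin-conjugating enzyme, rose by 1.76 and 1.42 (standard errors 0.37 and 0.27, adjusted p = 0.093 and 0.081).

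Histones, the proteins on which DNA is wound, were mostly higher at the high dose. Of 18 tested histone probe sets, 4 rose, 0 fell, and in 16 the high NH4+ arrays lay above the low NH4+ arrays, beside 1.51% called higher and 15.1% not overlapping over all probe sets. The median difference was 0.58. A histone H2AX probe set read 8.55, 7.90 and 8.72 at the low dose and 9.91, 9.76 and 9.29 at the high dose (difference 1.27, standard error 0.26, adjusted p = 0.087 from limma). A histone H3 probe set read 11.23, 10.96 and 10.93 against 11.95, 11.81 and 11.60, which is a 1.68-fold difference (log2 difference 0.75, standard error 0.16, adjusted p = 0.093). A second H3 probe set rose by 0.82 and a histone H4 probe set by 0.90. Histone probe sets for closely related copies can share transcripts, so these are not separate observations. Histone H2B-2, at 0.87, was one of the named probe sets just outside the threshold (adjusted p = 0.104).

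Of 5 tested probe sets of tubulin and actin, the proteins of the cytoskeleton, 1 rose (1.51% over all probe sets) and the median difference was 0.68. A probe set similar to the Arabidopsis alpha-tubulin TUA6 read 7.75, 6.87 and 7.53 at the low dose and 9.55, 9.14 and 8.49 at the high dose (difference 1.68, standard error 0.30, adjusted p = 0.081 from limma). Another probe set of this cluster, without a name of its own, differed by 2.35 and was called, and a TUA4-like one was not (9.79 to 10.68 at the low dose against 11.03 to 11.53, adjusted p = 0.110).

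The study listed 30 probe sets of cell growth and division genes, chosen on these same arrays and therefore no independent evidence of a direction. Of them, 9 rose, 0 fell and 28 had high NH4+ arrays above low NH4+ arrays (15.1% over all probe sets), with a median of 0.83. In 28 of the 30, high NH4+ replicate 1 was the highest of the 3 high NH4+ arrays, against 41.2% of all probe sets tested. The same array was the lowest in all 6 assimilation probe sets, and its 3' minus 5' difference of 0.75 was the smallest of the high NH4+ arrays. The 13 division probe sets called by name are not all from this list. They are those named in the preceding paragraphs, with the UBC19-like and TUA6-like ones among them. Their differences were 0.67 to 1.27 with the covariate (adjusted p = 0.469 to 0.518 from limma) and 0.71 to 1.42 without low NH4+ replicate 2 (adjusted p = 0.190 to 0.249). None of these 13 was called without high NH4+ replicate 1 (adjusted p = 0.274 to 0.342), without water replicate 1 (0.102 to 0.121) or without water replicate 3 (0.101 to 0.119). Without water replicate 2, 5 of the 13 were called (adjusted p up to 0.127), and without low NH4+ replicate 1, 12 were (up to 0.101).

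**Figure D4:**
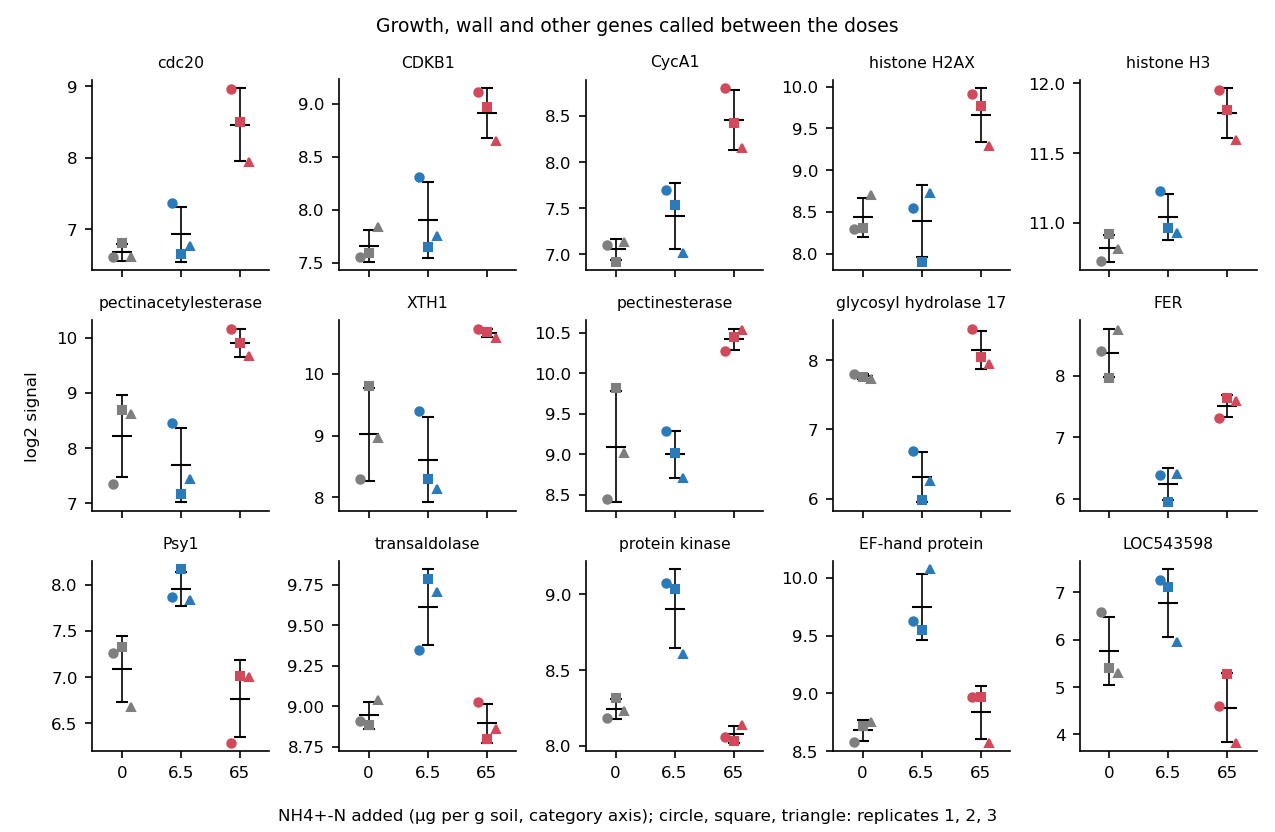
Log2 signal of 15 called probe sets on each of the 9 arrays, by NH4+-N added (0, 6.5 and 65 μg per g soil); circles, squares and triangles are replicates 1, 2 and 3, and bars are the mean and SD (n = 3). The top row holds division and chromatin genes, the middle row wall genes and FER, and the bottom row 5 genes that were lower at the high dose, where the low dose values of Psy1 (7.83 to 8.16) lie above those of both other groups.

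Cell wall genes held some of the largest named differences. Of 11 tested probe sets of pectin-modifying enzymes, 3 rose, 0 fell and 7 had high NH4+ arrays above low NH4+ arrays, with a median difference of 0.73, beside 1.51%, 15.1% and 0.06 over all probe sets. Pectin acetylesterase, which removes acetyl groups from pectin, read 8.45, 7.18 and 7.45 at the low dose and 10.16, 9.90 and 9.66 at the high dose, a 4.65-fold difference (log2 difference 2.22, standard error 0.42, adjusted p = 0.081 from limma). A second gene read 7.52, 7.38 and 6.25 against 9.75, 8.95 and 8.85 (log2 difference 2.13, standard error 0.36, adjusted p = 0.076 from limma). Its name is not settled, since the study's table calls it a pectinesterase and its sequence annotation names SKU5, an Arabidopsis protein of the cell surface that acts in directed root growth. A pectinesterase gene, whose enzyme removes methyl groups from pectin, read 9.28, 9.02 and 8.70 at the low dose and 10.28, 10.45 and 10.53 at the high dose (difference 1.42, standard error 0.32, adjusted p = 0.096). Of the other pectin genes, PMEU1 differed by 1.35 (adjusted p = 0.169) and PGcat, a polygalacturonase, by 0.10 (adjusted p = 0.792).

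XTH1 cuts and rejoins xyloglucan chains, which tie cellulose fibrils together. It read 9.40, 8.29 and 8.14 at the low dose and 10.72, 10.68 and 10.58 at the high dose (difference 2.05, standard error 0.41, adjusted p = 0.085 from limma). Among 9 tested probe sets of this enzyme family it was the 1 called, beside 1.51% called higher over all probe sets. The median of the family was 0.44, against 0.06 over all probe sets. Expansins, which loosen walls, had 0 of 8 called (2 with p under 0.05 before adjustment in limma, both higher) and a median of 0.32. The highest difference among them was that of EXP2, at 1.14 (adjusted p = 0.183). Of 12 beta-galactosidase and beta-glucanase probe sets, 0 were called (3 higher and 2 lower at an unadjusted p under 0.05), and TBG5 and TBG6, at 0.78 and 0.71, were nearest (adjusted p = 0.108 and 0.118).

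The lowest adjusted p of the whole comparison belonged to a gene similar to an Arabidopsis glycosyl hydrolase of family 17, a family that includes enzymes that cut beta-1,3-glucans. It read 6.70, 5.97 and 6.26 at the low dose and 8.46, 8.05 and 7.94 at the high dose (difference 1.84, standard error 0.21, adjusted p = 0.040 from limma). On the water arrays it read 7.73 to 7.81, so the low dose stood below both. This gene and 1 unnamed probe set were the 2 called at a false discovery rate of 5%, and both were still called after any single array other than high NH4+ replicate 1 or 2 was left out. A gene similar to Arabidopsis AXS2, whose enzyme makes sugar nucleotides for side chains of pectin, rose by 1.60 (standard error 0.26, adjusted p = 0.074). For the 6 wall probe sets named here as called, differences were 1.57 to 2.48 with the covariate (adjusted p = 0.362 to 0.474), and without low NH4+ replicate 2 only the glycosyl hydrolase remained called (adjusted p up to 0.249 for the others). Without high NH4+ replicate 1 none was called (0.115 to 0.325), and without water replicate 3 only the glycosyl hydrolase was (up to 0.119 for the others). Of the 6, 4 were called without high NH4+ replicate 3 (adjusted p up to 0.145) and 5 without low NH4+ replicate 1 (up to 0.107).

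In 4 of the 34 named probe sets that rose, the low dose lay farther from water than the high dose did, among them the glycosyl hydrolase described above. FER, a bHLH factor that switches on iron uptake in tomato roots, read 7.96 to 8.75 on the water arrays, 6.40, 5.95 and 6.40 at the low dose and 7.31, 7.64 and 7.59 at the high dose. All 3 low NH4+ values lay under a signal of 100, and the difference between the doses was 1.27 (standard error 0.23, adjusted p = 0.081 from limma), beside -2.12 for low minus water (adjusted p = 0.017, in a comparison that called 70 probe sets or 1.1%) and -0.86 for high minus water (adjusted p = 0.089, with 423 or 6.65% called). Trehalose-phosphate synthase 1, an enzyme of a sugar signal, read 6.90 to 7.15 with water, 5.95, 6.15 and 6.09 at the low dose and 7.07, 6.87 and 6.88 at the high dose (difference 0.88, standard error 0.14, adjusted p = 0.074). A gene similar to an Arabidopsis subtilase, a family of protein-cutting enzymes, read 8.39 to 8.57 with water, 7.39, 6.99 and 7.49 at the low dose and 8.74, 8.19 and 8.20 at the high dose (difference 1.08, standard error 0.20, adjusted p = 0.081).

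These patterns were counted over all calls as a description, since the comparisons share arrays. Among the 96 probe sets called higher, the water mean lay between the 2 doses in 68 (70.8%), below both in 24 (25%) and above both in 4 (4.17%). Of all 3585 probe sets with a higher mean at the high dose, 34.5%, 23.3% and 42.2% did so. The 96 were selected for this same difference, and nothing is read from the shares.

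Other named genes that rose were LOC543730 (difference 1.95, adjusted p = 0.074 from limma), TKR (1.06, adjusted p = 0.098), a gene similar to the Arabidopsis sterol 4-alpha-methyl-oxidase SMO2-1 (1.67, adjusted p = 0.095), a gene similar to an Arabidopsis thaumatin-like protein (1.85, adjusted p = 0.095) and a pair of genes similar to GDSL lipases (1.27 and 1.14, adjusted p = 0.074 and 0.095). LOC543730 read 4.99, 4.05 and 4.92 at the low dose, each under a signal of 100, and 7.11, 6.69 and 5.99 at the high dose. Both LOC543730 and TKR reached a signal of 100 on fewer than 3 of the 6 arrays. In 35 of the 105 calls all 3 low NH4+ arrays lay under a signal of 100, and 52 were at 100 or more on all 6 arrays. Of the 9 named probe sets made up of these and of FER, trehalose-phosphate synthase 1 and the subtilase, 0 were called without low NH4+ replicate 2 (adjusted p = 0.181 to 0.249 from limma), high NH4+ replicate 1 (0.274 to 0.334) or water replicate 3 (0.101 to 0.119). Without high NH4+ replicate 3, 6 of the 9 were called (adjusted p up to 0.137), without low NH4+ replicate 1, 8 (up to 0.114), without water replicate 1, 3 (up to 0.119), and without water replicate 2, 6 (up to 0.130).

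Among the 9 probe sets that were lower at the high dose, 5 had a name. Psy1, a phytoene synthase at the first step of carotenoid synthesis, read 7.83 to 8.16 at the low dose and 6.29 to 7.01 at the high dose (difference -1.19, standard error 0.25, adjusted p = 0.095 from limma). Transaldolase (LOC543811), an enzyme of the pentose phosphate pathway, read 9.35, 9.78 and 9.71 against 9.03, 8.80 and 8.86 (difference -0.72, standard error 0.16, adjusted p = 0.098). On the water arrays transaldolase read 8.89 to 9.04, near the high dose. LOC543598 read 5.95 to 7.26 at the low dose and 3.82 to 5.27 at the high dose, where all 3 arrays lay under a signal of 100 (difference -2.21, standard error 0.49, adjusted p = 0.096).

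Both remaining named genes belong to signalling families. A gene similar to an Arabidopsis protein kinase read 9.07, 9.04 and 8.61 at the low dose and 8.06, 8.03 and 8.14 at the high dose (difference -0.83, standard error 0.16, adjusted p = 0.081 from limma). A gene similar to a calcium-binding EF-hand protein read 9.63, 9.54 and 10.07 against 8.97, 8.97 and 8.57 (difference -0.91, standard error 0.19, adjusted p = 0.093). For both, the water values, 8.19 to 8.32 and 8.58 to 8.75, lay nearer to the high dose. All 5 named genes kept a negative difference with the covariate (-1.78 to -0.64) and after median centring (-2.45 to -0.97), and none was called without low NH4+ replicate 2 (adjusted p = 0.190 to 0.252), without any 1 of the high NH4+ replicates (0.110 to 0.334) or without water replicate 1 or 3 (0.101 to 0.128). Without low NH4+ replicate 1 or without water replicate 2, 1 of the 5 was called (adjusted p up to 0.151 and 0.133).

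The stress and hormone lists made here by gene name had few calls. In the study's disease/defence class, chosen on these arrays, 4 of 45 probe sets were called higher and 0 lower. Over all probe sets 1.51% were called higher and 0.141% lower. The median difference of the class was -0.19, against 0.06 over all probe sets. Of 13 tested probe sets of abscisic acid and carotenoid synthesis, Psy1 was the 1 called, beside 0.141% called lower over all probe sets. In this list 1 had a difference above 0, against 3585 of the 6365 tested. Its median of -0.51 was -0.19 without low NH4+ replicate 2 and -0.12 with the covariate. Of 8 heat shock probe sets 0 were called (3 lower with p under 0.05 before adjustment in limma), and the median of -0.58 was -0.36 and -0.19 in the same fits. The probe set of this list with the lowest adjusted p, similar to a DnaJ chaperone, differed by -1.03 (adjusted p = 0.118). The list left out a probe set that the study names a dnaJ heat shock protein. It was called higher (difference 1.27, standard error 0.25, adjusted p = 0.081 from limma). Another probe set outside the list, which the study names a dnaJ-related chaperone, was also called. Of 24 probe sets of ethylene receptors and signalling 0 were called (2 lower at an unadjusted p under 0.05), and the lowest adjusted p was that of EIL3, at a difference of -0.66 (adjusted p = 0.154). Of 15 pathogenesis-related probe sets 1 rose, the thaumatin-like one, beside 1.51% called higher over all probe sets. Its name is not settled, since the study's list of stress genes calls it a cold-regulated plasma membrane protein. Ribosomal proteins, with 21 probe sets tested, had 0 called (2 higher and 1 lower at an unadjusted p under 0.05) and a median of 0.04.

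**Figure D5:**
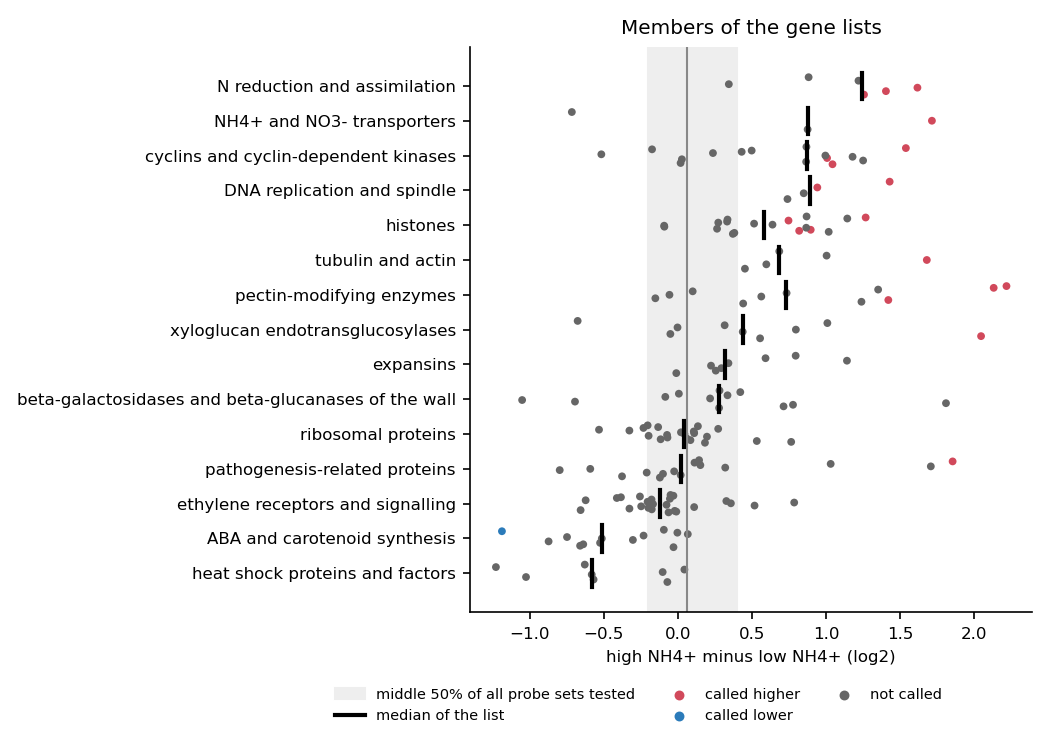
Difference between the doses (high minus low NH4+, log2) for each tested probe set of 15 gene lists. Red points were called higher, blue points called lower and grey points not called, black bars are the median of each list, and the shaded band runs from the lower to the upper quartile of all probe sets tested (-0.20 to 0.40). The medians run from 1.24 for N reduction and assimilation to -0.58 for heat shock proteins.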

How the data were processed

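The authors summarised each Affymetrix Tomato GeneChip with MAS5 in Expression Console and deposited the natural log of each signal (versions not given in the sources used); the trimmed mean signal was 500 on every array. Dividing these by ln 2 gave log2 values, and nothing else was normalized. Of 10209 rows, 171 controls were left out. The test was that of limma 3.58.1 (R 4.3.3), fitted once to the 3 groups over 9 arrays (6 residual and 2.99 prior degrees of freedom), with Benjamini-Hochberg adjustment over 6365 probe sets; tables and figures used Python 3.11.15, pandas 2.3.3, numpy 2.4.6 and matplotlib 3.10.9. The script was tested on simulated data. Names came from the platform annotation (651 of the 6365) and the study's annotation (607), 1164 in all, and a name with "similar to" is an Arabidopsis match. Genes named were called probe sets with a name, with values per array for the 10 largest differences and all that were lower. All members of the lists of N transporters and of N assimilation were named too. So were the 2 to 4 members of a described list with the lowest adjusted p and the 3 named probe sets just outside the threshold. Lists made from symbols and titles can miss genes on the array. PMEU1, PGcat, cdc2A-2, CYCD3, TPRP-F1 and ARPI were added after their values were seen. The members and the 41 gene lists were chosen with earlier results of these data known. At the signal threshold of 100, 162 members and 163 probe sets left out had a highest signal between 90 and 110. Alternatives covered the filter, scaling, test, replicate block, false discovery rate and each array left out; 4 were chosen after seeing the data. P-values rest on 3 biological replicates per dose. Columns of the authors' own comparisons were not used.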

Additional observations from a re-analysis of the deposited data

Results flagged for a closer look

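The control probe sets for the 2 ends of 3 transcripts are outside the comparison, and some NH4+ arrays exceeded the water arrays there. The actin 3' minus 5' difference was 1.78, 3.00 and 0.88 on low NH4+ replicates 1, 2 and 3 and 0.93 and 1.17 on high NH4+ replicates 2 and 3, against 0.43 to 0.85 with water. The EF1a difference was 3.41, 5.41 and 2.61 on the low NH4+ arrays and 2.76 on high NH4+ replicate 3, against 1.41 to 2.25. The GAPDH difference was 0.92 and 1.92 on low NH4+ replicates 1 and 2, against 0.27 to 0.72. The mean log2 signal of 18 hybridization controls, which are added in fixed amounts, was 10.83, 11.69 and 11.02 on low NH4+ replicates 1, 2 and 3 and 10.23, 10.60 and 10.75 on the high NH4+ arrays, so that the 3 low NH4+ arrays lay above the 3 high NH4+ arrays. The part of RNA quality in the differences between the doses was not tested beyond the covariate fit and the fits without low NH4+ replicates 1 and 2.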

How the results depend on the processing

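The number of probe sets called, 105 as reported, depended on most choices. It was 60 with the filter on any of the 9 arrays, 11 with no filter, 53 after median centring, 11 after quantile normalization, 40 with only the 6 high and low NH4+ arrays, 2 at a false discovery rate of 5%, 1408 with array weights (whose estimation did not converge) and 0 with the methods' test, run separately for each probe set (1032 at an unadjusted p under 0.05, lowest adjusted p = 0.139). Leaving out each array in turn gave 0 to 945. Of the choices made after seeing the data, the 3' minus 5' covariate gave 0 alone and 0 with median centring (538 and 516 at an unadjusted p under 0.05 from limma), leaving out low NH4+ replicates 1 and 2 together gave 0 (752), and leaving out replicate 2 with median centring gave 1. The cause of these changes was not tested. The count stayed within 1.5 times with the filter on at least 3 arrays (79), centring on bright probe sets (70), a floor at 100 (76) and limma-trend (101). Every called probe set that an alternative tested kept its direction in it. In most alternatives this was fixed in advance. The arrays of the 2 doses did not overlap in any of the 105, so leaving out arrays could not change a sign. Changes to the filter, the test, the block or the water arrays kept the same dose means. Treatments shared replicate numbers, but same-numbered high and low NH4+ arrays deviated together with correlations of 0.36, -0.161 and -0.286, which gives no sign of pairing. The plants stood in a block design, and whether a replicate number names a block is not given in the labels or methods. The fit with the replicate block called 9, of which 7 were among the 105, with 1 of the 7 nitrogen, 0 of the 13 division and 2 of the 6 wall probe sets.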

Other observations

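The study's annotation, chosen on these arrays, covers 53 of the 105 called probe sets, and 52 are outside it. Its cell structure class had 11 of 48 probe sets called higher and 0 lower (median difference 0.60), and its metabolism class 14 of 102 higher and 1 lower (median 0.31), beside 1.51% higher and 0.141% lower over all probe sets. In its transcription class 2 of 54 were called higher and 0 lower (median -0.16), and in protein synthesis 0 of 32 (5 higher and 7 lower at an unadjusted p under 0.05 from limma).

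The naming used here gave no gene name for 66 of the 105, but the study's list of stress genes names some of them. These include the dnaJ heat shock protein and the dnaJ-related chaperone described above, both called higher. That list also names a transcription factor similar to one that responds to desiccation. It was called higher too (difference 2.16, standard error 0.33, adjusted p = 0.074 from limma). The largest difference among the called was that of an unnamed probe set, which read 3.13, 2.49 and 0.00 (the floor of the values) at the low dose and 7.12, 5.50 and 5.72 at the high dose, so 2 of its 3 high NH4+ values also lay under a signal of 100. An unnamed probe set of the study's metabolism class read 7.53, 6.03 and 6.38 against 10.18, 10.12 and 9.07 (difference 3.14, standard error 0.46, adjusted p = 0.074 from limma). Among the unnamed probe sets lower at the high dose, the one with the largest difference read 11.22, 12.38 and 11.38 against 10.05, 10.33 and 10.02 (difference -1.52, standard error 0.29, adjusted p = 0.081).

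Probe sets that share a cluster number mostly moved together. Of the 97 clusters with a call, 22 had 2 or more members tested; in 6 all members were called, and in 20 all members had the same sign.

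Some named wall and defence genes had large differences that did not pass the test. TPRP-F1, a proline-rich protein gene, read 10.43, 8.91 and 9.83 at the low dose and 11.71, 11.76 and 11.33 at the high dose (difference 1.88, standard error 0.51, adjusted p = 0.130 from limma). ARPI, a proteinase inhibitor gene, read 10.10, 8.36 and 10.39 against 12.22, 11.31 and 11.03 (difference 1.90, standard error 0.64, adjusted p = 0.183). The high NH4+ arrays lay above the low NH4+ arrays for both, as in 15.1% of all probe sets tested.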
